A study of Mus musculus with 158 samples.

Results

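The immediate early genes Fos, Fosb, Fosl2, Jun, Junb, Jund, Egr1, Nr4a1, Arc and Klf10 were chosen by their symbols, and all 10 had a row among the 21956 gene rows of a count table from single mouse brain cells. Each cell was collected by patch pipette without any treatment, and its polyA RNA was amplified in 3 rounds before sequencing. The 158 libraries came from 149 cells after repeat libraries of a cell had been summed. Acute slices gave 5 CA3, 15 CA1 and 22 cortical neurons, CA1 and CA3 being fields of the hippocampus. Primary cultures gave 86 cortical astrocytes, 8 hippocampal neurons and 13 cortical neurons. Time in culture before collection differed: 3 astrocytes were at day 7, 70 at day 12, 5 at day 14 and 8 at day 15. All hippocampal neurons were at day 15, and of the cortical neurons 3 were at day 6, 3 at day 10, 4 at day 13 and 3 at day 15. The strain was C57/BL6 for the hippocampal cultures and the 7-day astrocytes and C57/BL6/N for all other cells, and no label gave an age of the mice. No label named an animal, a donor or a culture, so each group counted as 1 sample, no test of a difference between groups was possible, and differences are described without p-values.

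Immediate early genes are transcribed within minutes of a stimulus such as synaptic activity, a growth factor or cell stress, without new protein synthesis, because the factors that switch them on are already present and are modified by kinases. Proteins of the Fos family pair with proteins of the Jun family to form the transcription factor AP-1. In the brain these genes are widely used as marks of recently active neurons, and they also respond to injury and stress.

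Several of these genes respond to cAMP and calcium through the factor CREB, which binds the cAMP response element (CRE), so their upstream sequences are shown first. The 250 bases before the transcription start were available for 7 of the 10 genes (RefSeq, GRCm38.p6). These starts can differ from the GENCODE gene positions given below. The Fosl2 and Nr4a1 windows lie inside the GENCODE genes, and the Jund window ends at base 70697738, before the GENCODE start at 70698949. The search thus covers the RefSeq start only. They were searched on both strands for the full CRE (TGACGTCA), its short core (TGACG, which lies within the full site), an AP-1 site (TGACTCA) and the core of the serum response element. The short core was found before Fos, Fosb, Junb and Nr4a1 and not in the windows of Fosl2, Jun and Jund, while the other 3 motifs were found in none of the 7 windows. Among all 32851 promoters of the same length, 17.8% held the short core, 1.55% the full CRE, 4.46% the AP-1 site and 1.47% the serum response core. Fos and Fosb are printed as members with a higher pooled level in slice than in cultured cortical neurons. Nr4a1 is printed as the member with the most cores (4). Fosl2 is printed as a member without one, with a lower pooled level in those slice neurons. Of the other members searched, Junb, with a core, was also higher there, and Jun, without one, lower. Jund, without a core, was higher, and Nr4a1 did not meet the rule for a difference given below. A link between core and level was not tested. Capitals mark the core, which reads CGTCA where it lies on the other strand.
Fos (chr12:85473640-85473889, plus strand): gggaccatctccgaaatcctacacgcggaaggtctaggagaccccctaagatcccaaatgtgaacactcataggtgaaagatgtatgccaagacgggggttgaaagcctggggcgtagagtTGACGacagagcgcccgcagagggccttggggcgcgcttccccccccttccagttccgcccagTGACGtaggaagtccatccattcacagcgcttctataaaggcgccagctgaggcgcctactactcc
Fosb (chr7:19310046-19310295, minus strand): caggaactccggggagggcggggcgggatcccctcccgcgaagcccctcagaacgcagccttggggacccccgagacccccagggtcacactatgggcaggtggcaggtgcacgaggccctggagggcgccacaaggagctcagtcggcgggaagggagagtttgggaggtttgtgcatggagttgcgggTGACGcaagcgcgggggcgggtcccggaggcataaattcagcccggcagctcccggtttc
Nr4a1 (chr15:101266596-101266845, plus strand): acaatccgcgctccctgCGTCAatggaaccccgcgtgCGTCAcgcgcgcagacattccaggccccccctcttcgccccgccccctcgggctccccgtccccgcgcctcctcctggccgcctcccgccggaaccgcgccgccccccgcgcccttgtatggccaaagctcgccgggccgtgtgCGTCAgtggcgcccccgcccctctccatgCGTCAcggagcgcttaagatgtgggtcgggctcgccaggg
Fosl2 (chr5:32136222-32136471, plus strand): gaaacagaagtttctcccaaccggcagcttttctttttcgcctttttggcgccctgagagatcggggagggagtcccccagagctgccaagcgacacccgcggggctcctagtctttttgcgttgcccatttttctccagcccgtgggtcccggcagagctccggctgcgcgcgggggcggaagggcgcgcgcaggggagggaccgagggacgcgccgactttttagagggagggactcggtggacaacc
In the Fos window the cores began 129 and 66 bases before the start. In the Fosb window the core began 60 bases before it. These matches describe the letters only.

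Levels are in counts per 1000000 (CPM), taken over the pooled counts of each group, with exact Poisson 95% intervals, beside the lowest, median and highest cell. A gene was called detected in a cell with at least 5 counts after the cell had been thinned to 1000000 counts, and shares of cells carry Clopper-Pearson 95% intervals. The Poisson intervals cover counting error only, and the Clopper-Pearson intervals treat cells as independent. Neither covers differences between animals or cultures, and their overlap is no test. A CA1 cell with 535369 counts was too shallow for thinning, which leaves 14 CA1 cells in the detection shares. Total counts per cell had medians of 4916852 in CA3, 4125369 in CA1, 5744561 in cortical slice neurons, 15369172 in astrocytes, 10649013 in cultured hippocampal neurons and 13026965 in cultured cortical neurons. At equal depth the median number of genes detected in a cell was 2163 in CA3, 1897 in CA1 and 1812 in cortical slice neurons, against 4911 in astrocytes, 7506 in cultured hippocampal and 4445 in cultured cortical neurons. Astrocytes had a median of 5 of 20 neuron markers and 13 of 20 astrocyte markers, and the neuron groups 12 to 19.5 neuron markers and 4 to 7 astrocyte markers. More astrocyte than neuron markers were detected in 4 of 22 cortical slice neurons and 2 of 13 cultured cortical neurons. At least 3 of 12 microglia markers were detected in 1 of 5 CA3, 8 of 14 CA1 and 9 of 22 cortical slice neurons, and in 10 of 86 astrocytes, 0 of 8 cultured hippocampal and 3 of 13 cultured cortical neurons.

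**Figure D1:**
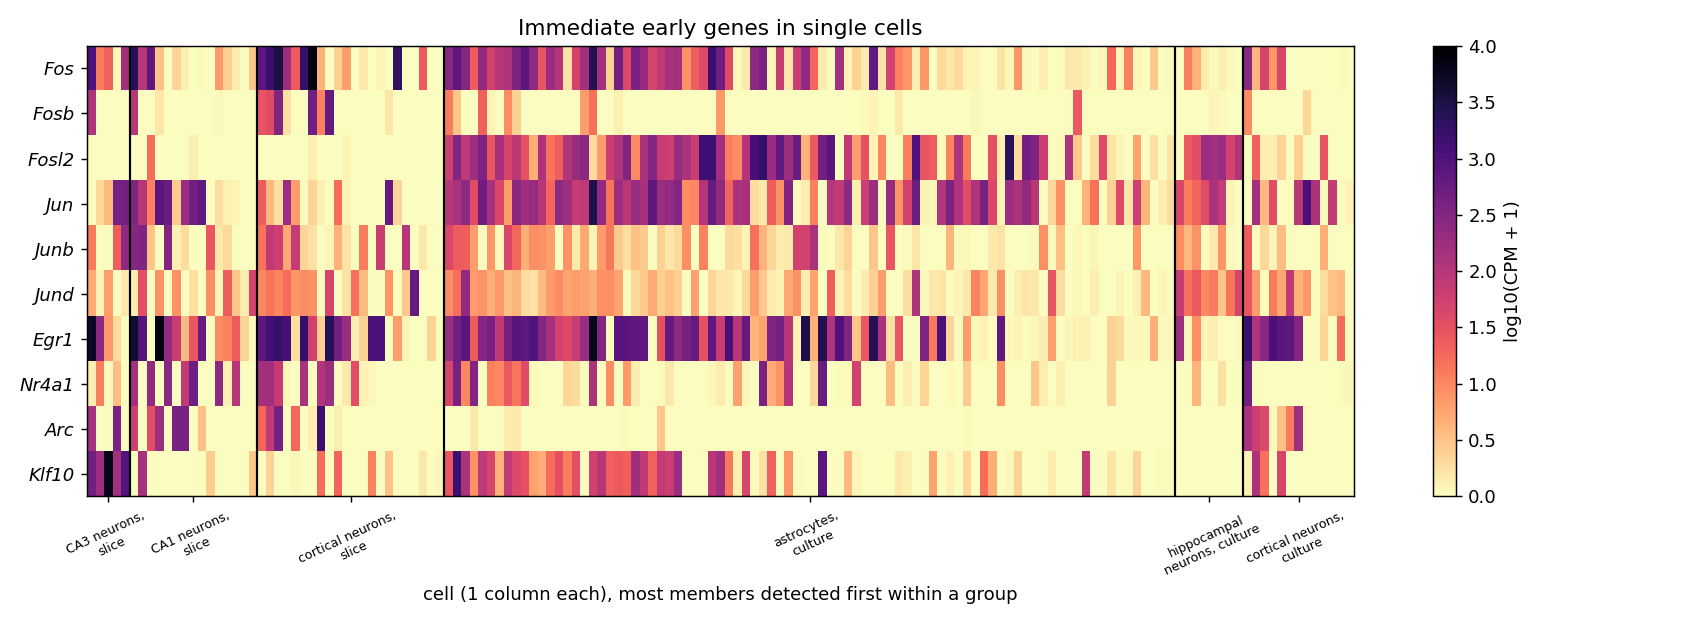
Levels of the 10 genes (rows) in all 149 cells (columns), coloured by log10(CPM + 1) and split by group. Most members were high in some cells of a group and at or near 0 in others, Klf10 was above 100 CPM in all 5 CA3 cells, Fosl2 was dark in astrocytes and cultured hippocampal neurons, and Arc was at or near 0 in both.

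Fos encodes the founding member of its family and is the standard mark of recent neuronal activity (chr12:85473890-85477273, plus strand, GRCm38). The 5 CA3 neurons had 0.133, 11.4, 21, 149 and 1009 CPM. CA1 neurons ran from 0 to 2415 CPM around a median of 1.21, and cortical slice neurons from 0 to 7146 CPM around a median of 2.51. A few cells carried most of these counts: CA1-5 held 63.1% of the CA1 counts, CA3-9 held 84.1% of the CA3 counts, and F2 held 34.8% of those of cortical slice neurons. Astrocytes ran from 0 to 2592 CPM with a median of 8.45, cultured hippocampal neurons from 0 to 10.7 CPM with a median of 0.236, and cultured cortical neurons from 0 to 269 CPM with a median of 0. Detection was 4 of 5 CA3 (80%, 28.4 to 99.5%), 4 of 14 CA1 (28.6%, 8.39 to 58.1%), 10 of 22 cortical slice (45.5%, 24.4 to 67.8%), 46 of 86 astrocytes (53.5%, 42.4 to 64.3%), 1 of 8 cultured hippocampal (12.5%, 0.316 to 52.7%) and 4 of 13 cultured cortical neurons (30.8%, 9.09 to 61.4%). All 6 groups held cells below 1 CPM, so their ranges overlapped. Among cortical slice neurons, 5 cells with titles of letter F summed to 1831 CPM of Fos and 16 with letter P to 291 CPM; the labels do not say what the letters mean.

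Fosb, whose product pairs with Jun proteins as Fos does (chr7:19302696-19310051, minus strand), was scarcer. Its counts lay in 1 CA3 cell (CA3-9, 117 CPM, with the other 4 at 0) and almost wholly in 1 CA1 cell (CA1-5, 92.7 CPM and 99.3% of the counts). Of 22 cortical slice neurons 6 had it detected (27.3%, 10.7 to 50.2%), with up to 605 CPM in P32. Among cultured cells it was detected in 5 of 86 astrocytes, in 0 of 8 cultured hippocampal neurons and in 1 of 13 cultured cortical neurons, J20_20 at 8.09 CPM.

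Fosl2 encodes FRA2, a Fos relative without the strong activation domain of Fos (chr5:32135801-32157842, plus strand). It showed another distribution. No count was found in the 5 CA3 neurons, 83 counts in CA1 of which 98.8% were in CA1-14 (15.8 CPM), and 3 counts in all 22 cortical slice neurons. Astrocytes ran from 0 to 2268 CPM with a median of 34.9, cultured hippocampal neurons from 0 to 185 CPM with a median of 82.2, and cultured cortical neurons from 0 to 28 CPM with a median of 0. Detection was 63 of 86 astrocytes (73.3%, 62.6 to 82.2%), 7 of 8 cultured hippocampal (87.5%, 47.3 to 99.7%) and 2 of 13 cultured cortical neurons (15.4%, 1.92 to 45.4%). A cultured hippocampal neuron without a Fosl2 count, M1D, had the highest Egr1 of that group, 170 CPM.

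**Figure D2:**
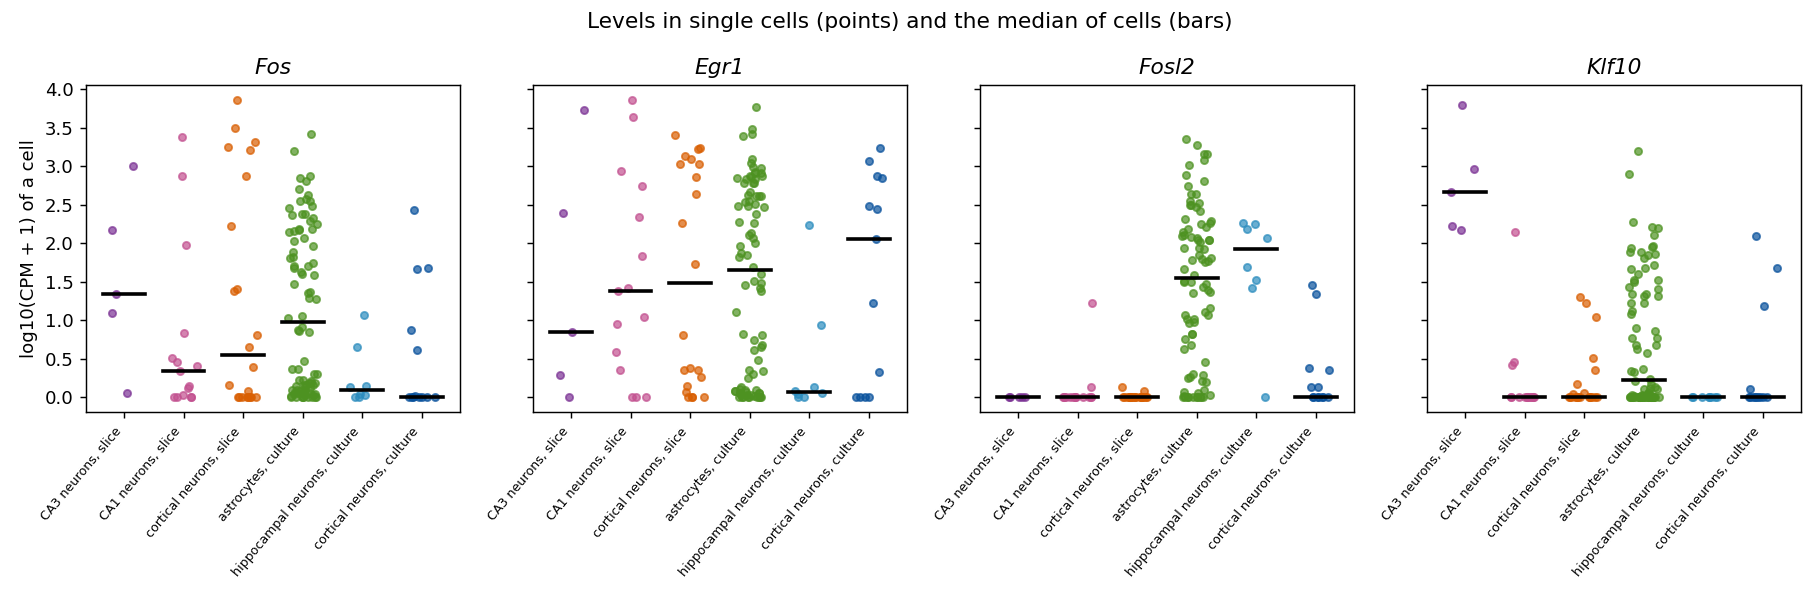
Levels of Fos, Egr1, Fosl2 and Klf10 as log10(CPM + 1) in each cell (points), with the median of the cells (bars), slices at left and cultures at right. Fos reached 7146 CPM in a cortical slice neuron and 2592 CPM in an astrocyte with other cells at 0, Fosl2 did not exceed 15.8 CPM in slices, and Klf10 was between 146 and 6194 CPM in CA3.

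Jun (chr4:95049034-95052222, minus strand) and Junb (chr8:84974484-84978718, minus strand) encode inducible partners of Fos, and Jund (chr8:70698949-70700616, plus strand) encodes a partner that is commonly present without a stimulus. Jun was 0, 1.02, 2.68, 417 and 449 CPM in the CA3 cells. It had medians of 10.0 CPM in CA1 and 0.148 CPM in cortical slice neurons, with highest cells of 831 and 584 CPM. In culture its medians were 73.6 CPM in astrocytes, 27 CPM in hippocampal and 2.84 CPM in cortical neurons. It was detected in 64 of 86 astrocytes (74.4%, 63.9 to 83.2%) and 6 of 8 cultured hippocampal neurons, and in 5 of 22 cortical slice neurons (22.7%, 7.82 to 45.4%). Junb was detected in 3 of 5 CA3, 4 of 14 CA1 and 8 of 22 cortical slice neurons, and in 19 of 86 astrocytes, 2 of 8 cultured hippocampal and 1 of 13 cultured cortical neurons. Its highest cells reached 242 CPM in CA3, 329 CPM in CA1 and 90.0 CPM in cortical slices, against 132 CPM in astrocytes, 7.73 CPM in hippocampal and 22 CPM in cortical cultures. Exons of Junb overlap exons of Prdx2 on the other strand, which had 907158 counts over all libraries against 17374 of Junb, and the strand setting of the counting is not given in the sources used here, so reads of the 2 genes may not be told apart. Jun and Jund overlap the antisense genes Junos and Gm11175, not analysed here, with the same limit. Jund was found in every cultured hippocampal neuron, from 2.01 to 67.1 CPM with detection in 7 of 8. In cortical slice neurons 12 of 22 had it detected, but 71% of the counts were those of P21 (613 CPM).

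Egr1 encodes a zinc finger factor induced by the same kinase pathways as Fos (chromosome 18). The 5 CA3 cells had 0, 0.928, 6.15, 247 and 5314 CPM, CA3-9 holding 92.4% of the counts. CA1 cells ran from 0 to 7261 CPM with a median of 23.3, and cortical slice neurons from 0 to 2509 CPM with a median of 29.6. Astrocytes ran from 0 to 5893 CPM with a median of 43.8, and cultured cortical neurons from 0 to 1697 CPM with a median of 111. Cultured hippocampal neurons had a median of 0.178 CPM. Egr1 was detected in 3 of 5 CA3, 9 of 14 CA1, 11 of 22 cortical slice, 53 of 86 astrocytes and 8 of 13 cultured cortical neurons, shares of 50% to 64.3% whose intervals overlap, and in 1 of 8 cultured hippocampal neurons (12.5%, 0.316 to 52.7%). In cultured cortical neurons Egr1 summed to 434 CPM at 6 days, 0.796 CPM at 10 days, 311 CPM at 13 days and 569 CPM at 15 days. At 6 days all of it came from J20_20, at 10 days the highest of 3 cells had 1.17 CPM, and at 13 days all 4 cells lay between 111 and 708 CPM.

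Nr4a1 encodes an orphan nuclear receptor (chr15:101254269-101274795, plus strand). It was detected in 7 of 14 CA1 neurons (50%, 23 to 77%), up to 498 CPM in CA1_41, and in 7 of 22 cortical slice neurons (31.8%, 13.9 to 54.9%), up to 172 CPM in P32. The CA3 cells had 0 to 10.6 CPM. It was detected in 16 of 86 astrocytes (18.6%, 11 to 28.4%), in 0 of 8 cultured hippocampal neurons and in 1 of 13 cultured cortical neurons, where J20_20 (466.4 CPM) held 99.9% of the counts.

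Klf10 encodes a zinc finger factor induced by transforming growth factor beta (chr15:38291463-38300706, minus strand). The 5 CA3 cells had 146, 169, 462, 911 and 6194 CPM, and it was detected in all of them (100%, 47.8 to 100%). Of CA1 cells 12 of 15 had no count, and the highest, CA1_20, had 141 CPM and 97.8% of the counts. The lowest CA3 cell (146.2 CPM) thus lay only just above the highest CA1 cell (140.8 CPM). The share of all genes that separate these groups is not given here. Cortical slice neurons reached 19.4 CPM with a median of 0. Astrocytes had it detected in 34 of 86 cells (39.5%, 29.2 to 50.7%), up to 1553 CPM in J322_11, and cultured cortical neurons in 3 of 13, up to 122 CPM. The 8 cultured hippocampal neurons had no count.

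Arc encodes a protein that moves glutamate receptors at synapses and is the only member here that is not a transcription factor (chr15:74669083-74672570, minus strand). It was detected in 2 of 5 CA3, 5 of 14 CA1, 5 of 22 cortical slice and 5 of 13 cultured cortical neurons. Its highest cells were CA3_10 with 389 CPM, CA1_34 with 404 CPM, P17 with 1433 CPM and, among cultured cortical neurons, 2016R14N_13 with 166 CPM. It was detected in 0 of 86 astrocytes (0 to 4.2%), where 60 counts summed to 0.047 CPM, and the 8 cultured hippocampal neurons had no count. All 4 cultured cortical neurons of 13 days had Arc, from 11.2 to 166 CPM, whereas at 6 days only J20_20 had it (123 CPM) and at 10 and 15 days no cell exceeded 2.33 CPM. Cortical cultures of 6 and 15 days were processed with bcl2fastq 1.8.4 and those of 10 and 13 days with the newer version, so for Arc and Egr1 alike day and version cannot be told apart except within these pairs of days.

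**Figure D3:**
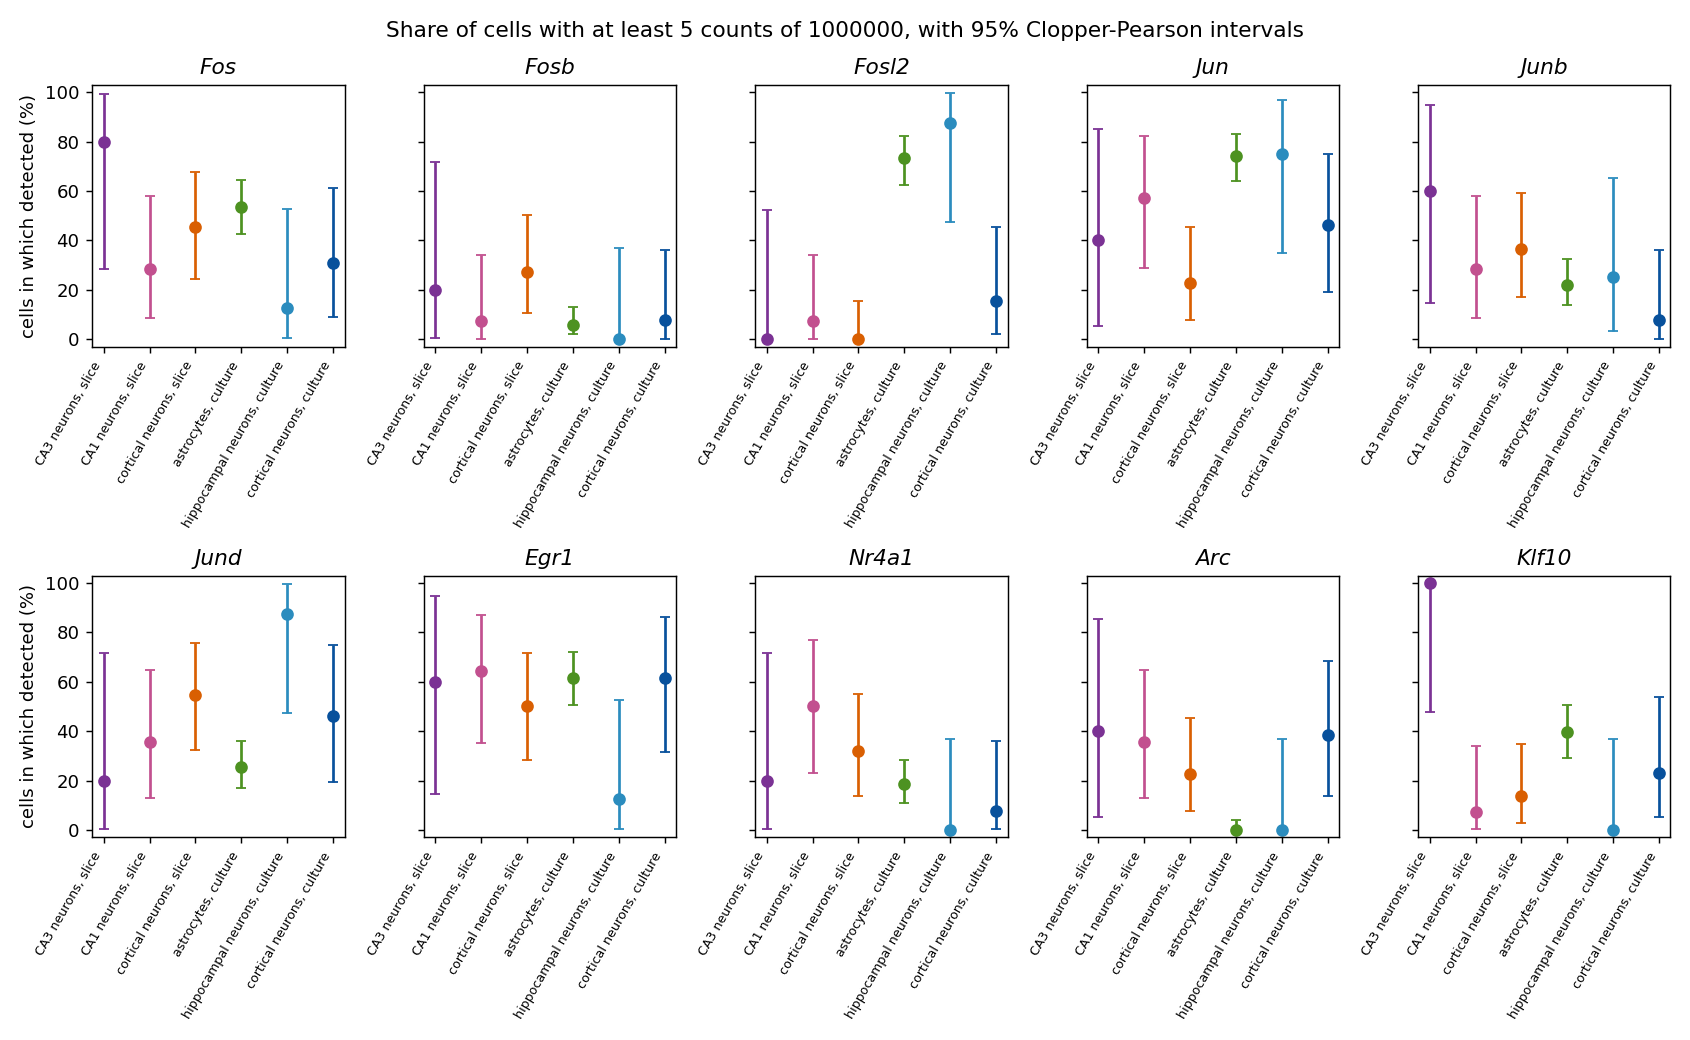
Share of cells in which each gene was detected, in percent, with 95% Clopper-Pearson intervals, for the 3 slice groups at left and the 3 culture groups at right of each panel. The intervals of most groups overlap; Fosl2 in astrocytes (62.6 to 82.2%) and cultured hippocampal neurons (47.3 to 99.7%) lies above cortical slice neurons (0 to 15.4%).

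To compare groups, a gene was counted as higher or lower when the log2 ratio of summed CPM and that of the mean of the cells' CPM, each with 1 CPM added, were both at least 1 in size in that direction and the share of cells with detection differed the same way. A gene detected in all cells of both groups, or in none, cannot meet this rule.

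Between cortical neurons of slices and of cultures, Fos, Fosb, Junb and Jund were higher in slices and Fosl2, Jun and Klf10 lower. Thus 4 of 10 members were higher, where 12.6% of 13741 genes were, and 3 lower, where 33.5% of genes were. Fos was 748 CPM (743 to 752) in slice neurons and 18.3 CPM in cultured neurons, a log2 ratio of 5.28 that ran from 4.72 without F2 to 6.21 without J20_20. Fosb had a ratio of 5.22 and Junb of 2.92, and leaving out any single cell ended neither. The Jund ratio of 1.75 dropped to 0.13 without P21, a cell with 4 microglia markers and 1 of the 4 slice neurons with more astrocyte than neuron markers. For Jun the ratio was -1.79, became -0.17 without the cultured cell 2016R3N_6, and turned to 1.57 with bcl2fastq 1.8.4 only. In cells with libraries of that version alone, Jun was 65.7 CPM in 6 slice neurons and 18.8 CPM in 6 cultured neurons. P2 held 97% of those slice counts. The ratio of 1.57 is not taken from these levels, which leave out F1 and P1, cells with libraries of both versions. For Klf10 it was -2.14, and the call ended without the cultured cell 2016R9N_19 (-1.12), which had 18 astrocyte and 17 neuron markers. Egr1 (0.98), Nr4a1 (1.14) and Arc (0.19) did not meet the rule, and Nr4a1 met it without J20_20, at 5.26. The median log2 ratio was 1.06 over the members and -0.24 over all measured genes. Microglia markers moved with this comparison: 10 of 12 were higher in slice neurons and none lower, their summed level ran from 0.456 to 17870 CPM in slice neurons and from 0 to 1946 CPM in cultured neurons, and Itgam was at 0 in the cultured group. In the 13 slice neurons with fewer than 3 such markers Fos summed to 947 CPM and Fosb to 30.04 CPM. Junb summed to 21.5 CPM and Jund to 5.07 CPM there. The first 3 levels stayed above culture and that of Jund did not. For Fosb this rested on F2, which held 93.1% of the counts, with detection in 3 of 13 cells. Cultured neurons were not filtered by these markers.

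The other early response lists were read in the same comparison. Of 12 measured early response transcription factors besides the members 5 were higher and 2 lower in slice neurons, with a median log2 ratio of 1.47; they included Ier2 (22.9 CPM in slice and 0.0382 CPM in cultured neurons), Klf2 (83.3 and 0.00955 CPM) and Egr4 (49.6 and 8.95 CPM), while Egr2, of the same family as Egr1, was lower (2.92 and 46.1 CPM). Of 12 activity-regulated synaptic and secreted genes 7 were higher and 2 lower, with Bdnf, a neurotrophin, at 283 and 7.62 CPM, the activin subunit gene Inhba at 18.1 and 0.143 CPM, and the prostaglandin synthase gene Ptgs2 at 10.8 and 0.0334 CPM. Of 15 signalling and mRNA decay genes 2 were higher and 6 lower, shares near those of all genes given above, and the lower ones included Ctgf (7.64 and 65.1 CPM) and Cyr61 (0.00657 and 68.1 CPM), which encode matrix proteins. Of 15 upstream factors and kinases 1 was higher and 3 lower, and of 10 heat shock genes none was higher and 4 were lower.

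Between CA1 slice neurons and cultured hippocampal neurons, 7 of 10 members were higher in CA1 (Fos, Fosb, Junb, Egr1, Nr4a1, Arc and Klf10), where 4.98% of 12806 genes were, and Fosl2 and Jund were lower, where 47.1% of genes were. The members' median log2 ratio was 4.01 and that of all measured genes -1.11. Egr1 was 542 CPM in CA1 and 13.1 CPM in culture (5.27), Nr4a1 84 and 0.523 CPM (5.80), and Fos 161 and 3.13 CPM (5.30), and none of these ended when a single cell was left out, although Egr1 moved to 7.96 without the cultured cell M1D and Fos to 3.94 without CA1-5. Arc was at least 1323-fold higher in CA1, or 768-fold without CA1-3, against a floor of 3 counts over the cultured group, in which it had no count. Fosl2 was lower, at 1.07 CPM in CA1 and 85.6 CPM in culture (-5.39). The Fosb ratio (2.25) was -0.01 without CA1-5, and that of Klf10 (3.97) was 0.44 without CA1_20. The Junb ratio (4.06) stayed between 3.30 and 4.30 with any cell left out, but detection in 28.6% of CA1 cells and 25% of cultured cells lay so close that leaving out any of 10 cells ended the call. The Jund ratio of -1.44 did not meet the rule with TMM (-0.42) or DESeq2 (-0.31) scaling. Jun (2.46) had a higher level in CA1 but a lower share of cells with detection and did not meet the rule. The lists gave fewer calls: 4 of 11 other early transcription factors were higher and 3 lower, 2 of 12 signalling genes higher and 3 lower, 2 of 12 synaptic and secreted genes higher and 3 lower, and of 14 upstream genes none higher and 3 lower. Egr2 (126 CPM in CA1 and 0.0341 CPM in culture) was higher here, whereas Ier2 (0.0514 and 4.92 CPM) and Ptgs2 (0.0514 and 3.79 CPM) were lower, each opposite to its call between cortical slice and cultured neurons. Egr2 was chosen after its values were seen. Csrnp1 was 62.9 CPM in CA1 and 0.0114 CPM in culture, Npas4, a neuronal activity factor, 13.8 and 0.0227 CPM, and the phosphatase gene Dusp1 114 and 1.99 CPM, while Rgs2, a regulator of G protein signalling, was 56.5 and 412 CPM. Of 12 microglia markers 11 were higher in CA1, their summed level running from 0.253 to 19339 CPM in CA1 and from 0.215 to 36.2 CPM in culture, where P2ry12, C1qc, Tmem119, Aif1 and Tyrobp were at 0. In the 6 CA1 cells with fewer than 3 such markers Egr1 summed to 1499 CPM, Fos to 383 CPM and Nr4a1 to 99.1 CPM, all above culture. CA1-5 held 91.3% of that Fos, which was detected in 2 of the 6 cells. The strain label also differed between these groups, so strain and source cannot be told apart.

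Between CA1 and cortical slice neurons, Fosl2, Jun and Nr4a1 were higher in CA1 and Fos, Fosb and Jund lower. These are 3 members higher, where 15.6% of 12666 genes were, and 3 lower, where 30.7% were. Jun was 207 CPM in CA1 and 28.2 CPM in cortex (2.83), detected in 8 of 14 and 5 of 22 cells, and no single cell decided it. Fos was 161 CPM in CA1 and 748 CPM in cortex (-2.21). In cortex the 5 cells with titles of letter F summed to 1831 CPM and the 16 of letter P to 291 CPM. The size of this difference thus rests largely on the F cells. The Fosl2 call rested on CA1-14 and the Jund call on P21, and that of Nr4a1 (1.13) ended without any of 5 cells. Of 12 other early transcription factors 4 were higher and 5 lower.

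Between CA3 and CA1 slice neurons, Klf10 and Fosb were higher in CA3 and Nr4a1 and Jund lower, 2 members of 9 measured in each direction, where 20.5% of 9378 genes were higher and 35% lower. Klf10 was 2459 CPM (2441 to 2478) in CA3 and 14.6 CPM (13.8 to 15.5) in CA1, a log2 ratio of 7.30 that ran from 4.23 without CA3-8 to 10.82 without CA1_20. Nr4a1 was 2.66 CPM in CA3 and 84 CPM in CA1 (-4.54), and no single cell ended it. Fosb (1.46) became -2.30 without CA3-9, and the Jund call (-1.16) ended with DESeq2 scaling (-0.60) and without any of 3 cells, the ratio running from -2.12 to -0.51 with 1 cell left out. Microglia markers were lower in CA3, 11 of 12 of them, and CA3 had 1 of 5 cells with at least 3. Without slice cells of that kind the 4 CA3 cells left had 3336 CPM of Klf10 and the 6 CA1 cells 49.1 CPM. Of the other lists, 4 of 10 synaptic and secreted genes were higher and 3 lower in CA3, led by Nrn1 (1121 and 134 CPM), which encodes a neurite growth factor, and Ptgs2 (420 and 0.0514 CPM).

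Between the cultures of hippocampal and cortical neurons, Fosl2 and Jund were higher in hippocampal neurons and Fos, Egr1, Nr4a1, Arc and Klf10 lower. These are 2 members higher, where 27.2% of 13485 genes were, and 5 lower, where 11.6% were. Egr1 was 13.1 CPM in hippocampal and 324 CPM in cortical neurons (-4.52), and Fosl2 85.6 and 6.01 CPM (3.63). Arc had no count in hippocampal neurons and was at least 1073-fold lower there, or 429-fold without the cortical cell 2016R14N_13. Klf10 was at least 315-fold lower, or 141-fold without 2016R9N_19. The Nr4a1 call rested on J20_20, a cell of 6 days, and the Jund call (1.41) ended with TMM and DESeq2 scaling and without any of 8 cells, although its summed ratio stayed at 1.01, at 1.14 and between 1.15 and 2.02 in these cases. The strain label differed between these cultures too, so strain and region cannot be told apart. Among cells of 15 days, 3 cortical neurons had 0.545 CPM of Arc and 10.7 CPM of Klf10. The mean share of cells with detection was 24 percentage points higher in hippocampal neurons over all measured genes and 1.5 points higher over the members.

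Between astrocytes and cultured cortical neurons, Fos, Fosl2, Junb and Klf10 were higher in astrocytes and Arc lower. These are 4 members higher, where 26.3% of 17473 genes were, and 1 lower, where 13.7% were. Fosl2 was 172 CPM (171 to 173) in astrocytes and 6.01 CPM in neurons (4.63), Fos 133 and 18.3 CPM (2.79), and Klf10 49.1 and 10.8 CPM (2.09), and no single cell ended these. Egr1 was 416 and 324 CPM (0.36) and did not meet the rule. Junb (1.40) ended without J288_8. Of the lists, 9 of 13 other early transcription factors and 9 of 16 signalling genes were higher in astrocytes, with Klf6 detected in 80 of 86 astrocytes and 5 of 13 neurons, Klf4 in 52 and 1, Dusp1 in 71 and 4, and Ctgf in 84 and 5. Fos was 23.9, 143, 126 and 80 CPM in astrocytes of 7, 12, 14 and 15 days, Fosl2 5.43, 199, 101 and 50.5 CPM, and Egr1 48.1, 439, 314 and 434 CPM. The 7-day values rest on 3 cells of another strain label, with most of these counts in J50_8.

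Cell by cell, the number of members detected was 4 to 6 in CA3, 0 to 7 in CA1, 0 to 8 in cortical slice neurons, 0 to 9 in astrocytes, 2 to 4 in cultured hippocampal and 0 to 7 in cultured cortical neurons. P1 had 8 members, with 745 CPM of Fos, 734 of Egr1, 145 of Nr4a1, 27.5 of Fosb and 17.8 of Arc. P4, P33, CA1-5 and, among cultured neurons, J20_20 had 7 members each. Of 86 astrocytes, 6 had 7 members, 2 had 8 and 1 had 9. P4 had 3162 CPM of Fos, 1684 of Egr1, 312 of Fosb and 419 of Arc, and CA1-5 had 2415 CPM of Fos and 4330 of Egr1. The neurons above were named for their many detected members, so that each carried several of the genes together follows from that choice. Other cells had 1 member alone detected, at a high level: P21 had only Jund (613 CPM), and P15 only Junb (90.0 CPM). Both were poor in genes: P21 had 556 genes and 0 neuron markers detected, and P15 had 740 genes and 6 neuron markers. The medians of cortical slice neurons were 1812 genes and 12 neuron markers, and P1 and P4 had 3755 and 3398 genes. F7 had only Fos (2033 CPM), with Egr1 at 5.52 CPM and no count of Fosb, Junb, Nr4a1 or Arc. F7 lay near those medians, with 1761 genes and 13 neuron markers. Whether the low number of genes in P21 and P15 accounts for their single member was not tested. P4 and P33 had 11 and 10 of 12 microglia markers detected. No member was detected in 2 of 22 cortical slice neurons, 1 of 14 CA1 neurons, 1 of 13 cultured cortical neurons and 4 of 86 astrocytes.

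Cells with more members also had more genes detected. Spearman's rho between the 2 counts was 0.67 over 41 slice neurons, 0.78 over 22 cortical slice neurons, 0.68 over 13 cultured cortical neurons and 0.57 over 86 astrocytes, as a description of cells that share a depth of 1000000 counts. With microglia markers detected, rho was 0.26 in cortical slice neurons and -0.39 over 14 CA1 neurons (-0.01 over all slice neurons). With heat shock genes detected, it was 0.69 in cortical slice neurons and -0.21 in CA1 neurons (0.45 over all). The part of the number of genes in the pairs below was not tested.

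**Figure D4:**
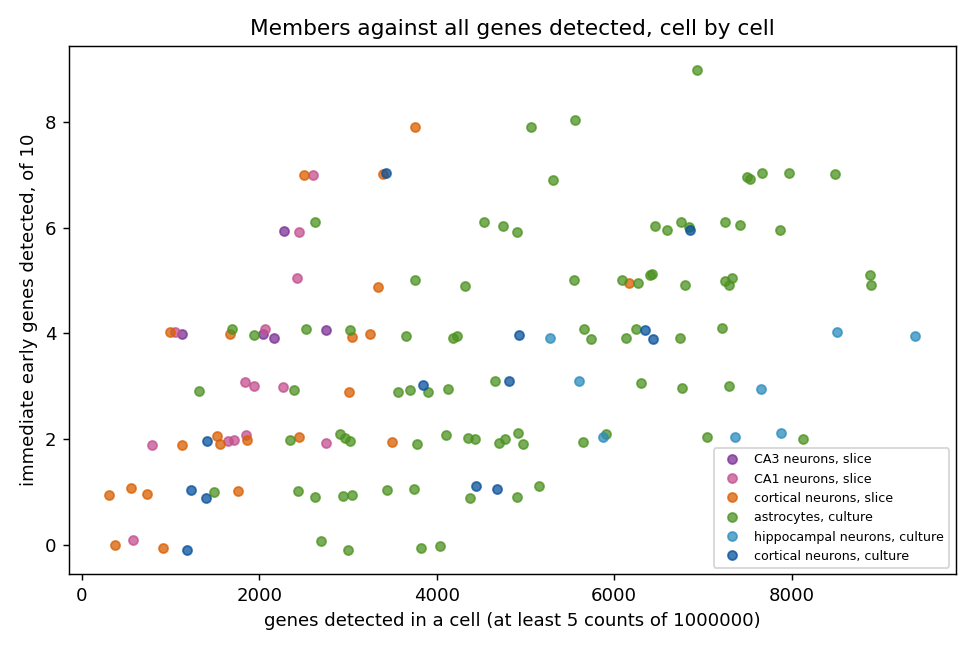
Immediate early genes detected in each cell (0 to 10, points spread slightly up and down) against all genes detected in it, coloured by group. The slice neuron P1 has 8 members at 3755 genes, whereas the 8 cultured hippocampal neurons have 5276 to 9393 genes and 2 to 4 members.

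In slice neurons Egr1 was detected in 12 of 18 cells with Fos (66.7%, 41 to 86.7%) and in 11 of 23 without it (47.8%, 26.8 to 69.4%), and Fosb in 6 of 18 (33.3%, 13.3 to 59%) and 2 of 23 (8.70%, 1.07 to 28%). These intervals overlap, as do those of the other 7 members. For Egr1 the direction differed between slice groups. In cortical slice neurons it was detected in 7 of 10 cells with Fos and 4 of 12 without. In CA1 neurons it was detected in 2 of 4 with Fos and 7 of 10 without. Over all slice neurons the median number of genes detected was 2477 with Fos and 1716 without. In astrocytes the shares stood further apart: Egr1 was detected in 37 of 46 cells with Fos (80.4%, 66.1 to 90.6%) and in 16 of 40 without it (40%, 24.9 to 56.7%), Klf10 in 27 of 46 (58.7%, 43.2 to 73%) and 7 of 40 (17.5%, 7.34 to 32.8%), and Junb in 16 of 46 (34.8%, 21.4 to 50.2%) and 3 of 40 (7.5%, 1.57 to 20.4%). The intervals of Egr1, Klf10 and Junb did not overlap, which describes these cells and is no test. Cells with Fos had a median of 6170 genes against 4159 without. Fos and Fosl2 were both detected in 38 astrocytes, Fos without Fosl2 in 8 and Fosl2 without Fos in 25. In slice neurons Fos was seen without Fosl2 in 17 of 18 cells, and in cultured hippocampal neurons Fosl2 without Fos in 6 of 7. Among slice neurons, however, Fosl2 was detected in 1 CA1 cell only, and Fos in 1 of 8 cultured hippocampal neurons. Both counts were thus largely fixed by how rare the second gene was, and do not show that the genes exclude each other.

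**Figure D5:**
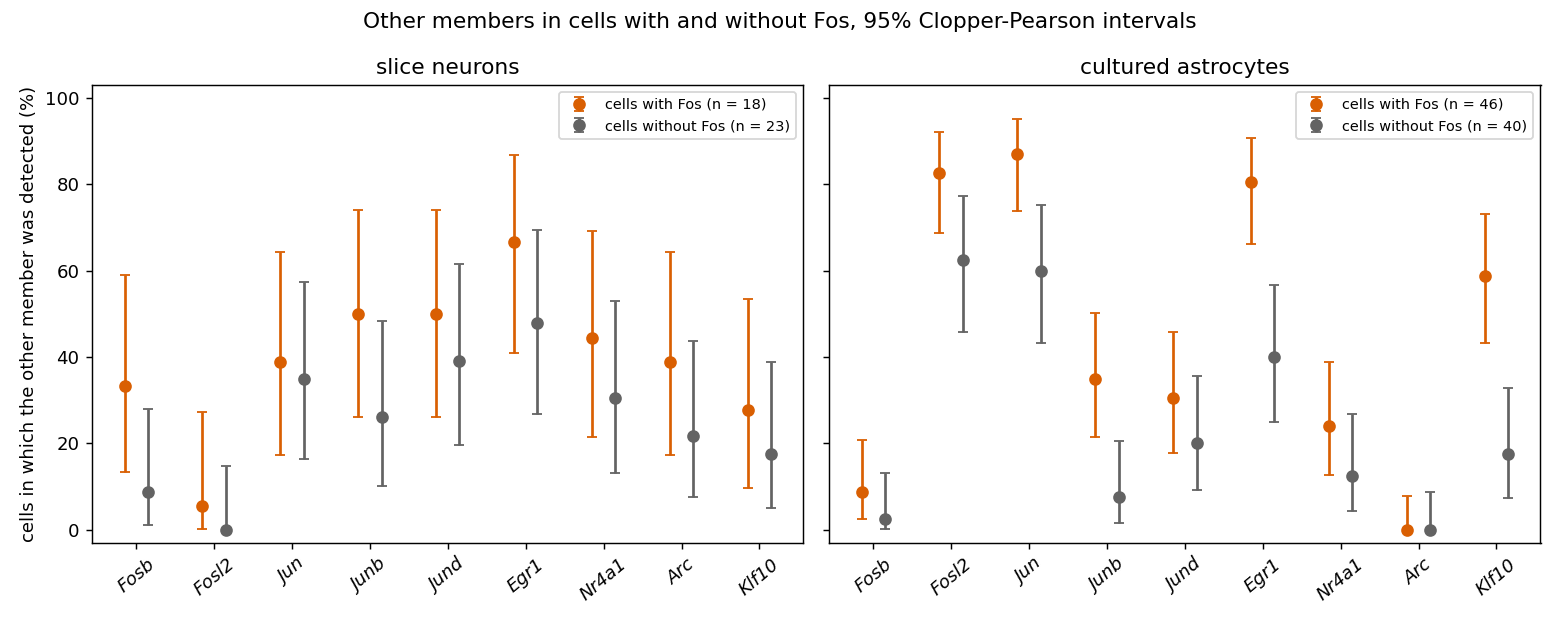
Share of cells, in percent with 95% Clopper-Pearson intervals, in which each other member was detected among cells with Fos (left point of a pair) and without Fos (right point), for 41 slice neurons and 86 astrocytes. In astrocytes the intervals of Egr1, Klf10 and Junb do not overlap. In slice neurons, which are fewer, those of all pairs do. The intervals treat cells as independent and are no test.

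A Fos family gene and a Jun family gene were both detected in 14 of 41 slice neurons, 11 of 21 cultured neurons and 62 of 86 astrocytes. In the same order, any Fos family gene was detected in 20, 13 and 72 cells and any Jun family gene in 30, 17 and 71. Whether the joint counts exceed what these shares alone would give was not tested. A Jun family gene alone was seen in 16 slice neurons, 6 cultured neurons and 9 astrocytes, and a Fos family gene alone in 6, 2 and 10. Over log2(CPM + 1) the 45 pairs of members had a median Spearman's rho of 0.14 in slice neurons (-0.24 to 0.50) and 0.22 in astrocytes (-0.01 to 0.61). The highest pair in astrocytes was Fos with Egr1 (rho 0.61, Pearson's r 0.59, 86 cells) and in slice neurons Fosb with Egr1 (rho 0.50, r 0.48, 41 cells). The highest pair was another one within cortical slice neurons (Egr1 with Nr4a1, rho 0.64, r 0.45, 22 cells), within CA1 neurons (Jun with Egr1, rho 0.72, r 0.69, 14 cells) and in slice neurons with fewer than 3 microglia markers (Fosb with Arc, rho 0.82, r 0.52, 23 cells).

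Among 2573 named genes detected in at least 11 of the 41 slice neurons, those with CPM most like Fos by Spearman's rho were Ap3b1 (0.65), Cxadr, Alcam and Tob1 (0.62 each) and Etl4 (0.61), where the median gene had 0.22 and the number of genes detected 0.52. Those most like Egr1 were Cds1 (0.64), Ep400 (0.63), Myt1l (0.61), Cnot4 (0.59) and Dnajb6 (0.58). Among 7629 genes detected in at least 22 of the 86 astrocytes the nearest to Fos were the pseudogene Tmem181b.ps (0.57), Tmem168 (0.52), Tctn2 and Aldh6a1 (0.51 each) and Arhgef11 (0.49), and to Egr1 Aldh6a1 (0.55), Sfxn1, A2m and Rsph9 (0.48 each) and Pofut1 (0.46), where the median gene had 0.13 for both.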

How the data were processed

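Gene counts of 158 libraries were used as deposited. Per the submitters' processing notes, the authors' tools were bcl2fastq 1.8.4 or 2.17, STAR and HTSeq, and the build mm10. The sources used here do not give the versions of STAR and HTSeq, the annotation or the strand setting. Per the labels' protocols the libraries were TruSeq Stranded. The deposited values are raw counts, with no normalization by the authors. Of 9 repeat pairs summed, 8 were recognised by title and 1 (prefix J6) from the counts.

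Analysis used Python 3.11.15 with numpy 2.4.6, pandas 2.3.3 and scipy 1.17.1, and R 4.3.3 with edgeR 4.0.16 and DESeq2 1.42.0 for scaling factors only. Thinning used seed 7. A gene was measured in a comparison if the pooled counts of the 2 groups reached 10 and 3 or more cells had any. The calling code was tested on simulated data at several ranges of level. No changed gene was called in the wrong direction, but recovery was lower for well-expressed genes, because the rule needs a difference in detection; absence of a call is therefore weak evidence.

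The 10 members and 10 further gene lists were chosen with earlier results of these data known. All members are named; of each other list, up to 4 called genes with the largest difference in detection were eligible per comparison; and the 5 genes most like Fos and Egr1 are named. Alternatives were other scalings, pseudocounts, filters, detection rules, depths and subsets of cells. Egr3, on a list, was not analysed here. Gene positions are from the GENCODE annotation of GRCm38.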

Additional observations from a re-analysis of the deposited data

Results flagged for a closer look

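In groups of 4 to 10 cells, 17 sets of a member and a group were examined. Of these, 5 had a cell far from the rest on the log2(CPM + 1) scale. The rule's nominal rate of about 1 set in 20 does not hold where most cells are at 0. Fosb was at 0 in 4 of 5 CA3 cells and in 6 of 8 cultured hippocampal neurons. The 5 sets therefore cannot be read as an excess over chance. Fosb was 117 CPM in CA3-9 with the other CA3 cells at 0. In cultured hippocampal neurons, Fosb was 0.176 CPM in M9S with the next cell at 0.0744 CPM, Nr4a1 was 3.16 CPM in M6S with the next at 0.744 CPM, and Egr1 was 170 CPM in M1D with the next at 7.64 CPM. Fosl2 was 0 CPM in M1D, where the next lowest cell had 25.2 CPM. The Fosb and Nr4a1 values of the cultured cells are below the level for detection. M1D was thus set apart in Egr1 and in Fosl2.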

How the results depend on the processing

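No paired analysis was possible because the replicate numbers only name cells and no label pairs cells across groups. Counts of members moved by over 1.5 times in 21 of 206 recalculations that did not leave out single cells, and 8 of 673 values of called members changed sign. With TMM factors, members lower in CA1 than in hippocampal culture numbered 1 (2 as reported) and members higher in hippocampal than in cortical culture 1 (2); DESeq2 factors gave 1 and 1, and 1 lower in CA3 than CA1 (2). TMM moved the log2 ratios by 1.12 for CA1 against hippocampal culture, and by 0.27, 0.44, 0.13, -0.41 and 0.01 in the other comparisons as ordered above; no called member changed sign under either scaling. DESeq2 factors moved the CA3 over CA1 ratios by 0.77, and the members' median there was 0.45 (-0.32 as reported). A pseudocount of 5 CPM gave 1 higher and 1 lower in CA3, and 1 higher in hippocampal culture. The filter of 100 counts and 5 cells gave 1 higher in CA3, and detection at 1 count 1 lower. Summed CPM alone gave 5 higher in CA1 than in cortex (3). With cells of the newer bcl2fastq version only, 1 member was higher and 3 lower (5) in hippocampal than in cortical culture; with cells of bcl2fastq 1.8.4 only, 1 was lower in cortical slice than culture (3) and 1 higher in CA1 than cortex. Without slice cells with microglial RNA, 1 was lower in CA1 than in hippocampal culture, 5 were higher in CA1 than cortex and 1 higher in CA3. At 15 days only, 4 were higher and 2 lower in hippocampal culture, and 0 lower in astrocytes (1). Signs turned for Fosb in CA1 over hippocampal culture (-0.02) and Nr4a1 between the cultures (0.61) with the newer version only, for Jun in cortical slice over culture (1.57) and Fosl2 in CA1 over cortex (-0.05) with 1.8.4 only, for Jund without slice cells with microglial RNA (-0.40 in cortical slice over culture and 1.22 in CA1 over cortex), for Nr4a1 between the cultures at 15 days (0.58) and for Fosb in CA3 over CA1, which ran from -2.30 to 2.08 when a CA3 cell was left out; beyond the smaller number of cells, the cause was not tested. Leaving out each cell in turn in both groups, an alternative added after seeing the data, gave 1 to 2 members lower in CA1 than in hippocampal culture, 1 to 4 higher in CA1 than cortex, 1 to 3 higher and 1 to 4 lower in CA3, and 1 to 3 higher in hippocampal than cortical culture. The share of slice neurons with Egr1 was 58.8% with Fos and 50% without at 500000 counts.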
